A study of Homo sapiens with 6 samples.

Results

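The AP-1 and EGR immediate early factors studied here are 10 genes: the FOS family (FOS, FOSB, FOSL1, FOSL2), the JUN family (JUN, JUNB, JUND), ATF3, EGR1 and EGR3. They were taken by gene name from the 20745 genes of the deposited table, and each name occurred there once. The table came from bulk RNA sequencing of AB 8/13 cells, a conditionally immortalized human podocyte line from a single source that carries a temperature-sensitive viral T antigen and was moved to the growth-restricting temperature to differentiate. The labels describe 3 vehicle cultures, kept without serum for 24 h, and 3 cultures that received levamisole at 1 µM, also without serum, for 24 h. Levamisole is a steroid-sparing drug used in nephrotic syndrome. The study's methods give complete medium for the vehicle cultures, which differs from the labels, and state that the 3 replicates of each group came from different cell passages. Serum is a classic inducer of these genes, and the part of the medium in their levels was not tested.

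What the table gives for each gene is the base mean, a mean of normalized counts over all libraries of the authors' fit, with no value per culture. Vehicle and levamisole cultures are averaged in it. The columns of the authors' own group comparison were not used, so no change with levamisole is given for any gene, and no error, replicate spread or test can be attached to a level. The depth of each library is unknown. All levels below are therefore the authors' means over all libraries of their fit, which may be more than the 6 of both groups. They are given as deposited, or divided by the length of the gene's merged exons in kilobases when genes are compared with each other. The reads came from the 3′ end of transcripts, for which division by length may over-correct, so for the members the value as deposited stands beside it.

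AP-1 is a dimer of basic leucine zipper proteins. JUN proteins pair with each other or with FOS proteins, FOS proteins need a JUN-type partner, and the dimer binds short palindromic DNA sites. Many of these genes are immediate early genes: growth factors, serum or stress induce them within minutes through ERK, JNK and p38 kinases and through serum response factor, without new protein synthesis, and their short-lived mRNAs are soon degraded. EGR proteins are zinc finger factors that bind GC-rich sites and are induced by the same route.

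Sequence just upstream of the transcript start is shown first, and sites further than 250 bases before the start were not searched. RefSeq windows of 300 bases on GRCh38.p14, from 250 bases before the start to 50 after it, were used for 8 of the 10 members. FOSL1 and EGR3 had no window here and were not searched for motifs. A further ATF3 window was left out, because the base taken as its start is also the first base of an internal exon in 5 annotated ATF3 transcripts. The ATF3 window used lies 43.4 kb upstream of the start of the canonical transcript. Its start base is 73 bases from the nearest annotated transcript start. The other 7 windows take the start of their canonical transcripts, and the sequence at the canonical ATF3 start was not searched. The 250 bases before the start of EGR1 are shown because its window held CArG boxes, the sites of serum response factor. FOS, FOSB, JUNB and JUND are shown for comparison and were chosen after the motif search had been seen. Each is written 5′ to 3′ on the gene's strand. Capitals mark matches, on either strand, to the CArG box, to the cAMP response element or its shorter core, to the EGR site or to the TATA box.
EGR1, chr5:138465229-138465478, plus strand: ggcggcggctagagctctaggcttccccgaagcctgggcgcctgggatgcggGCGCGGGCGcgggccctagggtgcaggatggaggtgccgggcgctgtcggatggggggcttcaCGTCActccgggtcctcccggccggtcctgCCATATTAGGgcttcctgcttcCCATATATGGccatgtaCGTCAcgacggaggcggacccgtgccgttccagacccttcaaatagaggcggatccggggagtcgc
FOS, chr14:75278578-75278827, plus strand: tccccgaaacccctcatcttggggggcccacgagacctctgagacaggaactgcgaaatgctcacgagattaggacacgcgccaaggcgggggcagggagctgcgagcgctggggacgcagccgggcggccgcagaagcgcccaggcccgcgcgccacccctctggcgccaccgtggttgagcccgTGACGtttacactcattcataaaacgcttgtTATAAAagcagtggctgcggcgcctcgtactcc
FOSB, chr19:45467746-45467995, plus strand: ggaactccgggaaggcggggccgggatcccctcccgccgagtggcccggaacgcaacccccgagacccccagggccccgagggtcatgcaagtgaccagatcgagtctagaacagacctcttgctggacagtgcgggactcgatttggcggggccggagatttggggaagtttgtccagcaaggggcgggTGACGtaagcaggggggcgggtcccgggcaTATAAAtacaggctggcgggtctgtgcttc
JUNB, chr19:12791236-12791485, plus strand: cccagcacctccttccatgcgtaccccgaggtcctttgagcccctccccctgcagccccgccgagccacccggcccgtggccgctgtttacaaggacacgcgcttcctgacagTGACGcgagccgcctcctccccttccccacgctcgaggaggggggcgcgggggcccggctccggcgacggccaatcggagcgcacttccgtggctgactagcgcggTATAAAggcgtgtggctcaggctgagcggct
JUND, chr19:18281623-18281872, minus strand: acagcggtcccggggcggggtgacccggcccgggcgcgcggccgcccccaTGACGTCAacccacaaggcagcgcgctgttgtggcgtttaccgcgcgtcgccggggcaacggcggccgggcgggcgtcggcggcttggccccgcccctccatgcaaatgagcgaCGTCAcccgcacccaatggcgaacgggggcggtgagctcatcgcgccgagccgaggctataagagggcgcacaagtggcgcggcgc

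Within these windows, EGR1 was the member with CArG boxes: it had 2 full matches, from 105 to 96 and from 83 to 74 bases before the start. A CArG box occurred in 1.3% of all 34796 distinct promoter windows of the same length, and in no other member's window. A box further than 250 bases before a start could not be found this way. Its absence in FOS and the other members therefore holds for their windows only. Allowing 1 mismatch added ATF3 to EGR1 and raised the share of all windows to 18.9%. EGR1 also held a match to the EGR site GCGNGGGCG, the sequence that EGR proteins bind, from 198 to 190 bases before the start. That site occurred in 9.43% of all windows.

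The full cAMP response element, TGACGTCA, bound by CREB and ATF factors, was present in the window of JUND, from 200 to 193 bases before the start, and occurred in 1.84% of all windows. Its core TGACG, which the full element contains on both strands, was found in 7 of the 8 members with a window (JUN, JUNB, JUND, FOS, FOSB, FOSL2 and EGR1), and in 24.5% of all windows. In FOS it lay from 64 to 60 bases before the start and in FOSB from 60 to 56. FOSL2 and EGR1 also had a match from 66 to 62, on the opposite strand in EGR1, so this place was not particular to FOS and FOSB. In JUN, JUNB and JUND the match nearest the start began 123, 137 and 86 bases before it. The TATA box TATAAA was found in 3 of the 8 members with a window, against 11.6% of all windows. It began 33 bases before the start in FOS, 30 in FOSB and 31 in JUNB. The AP-1 site TGANTCA was found in FOSL2, at bases 5 to 11 of the transcript, and in 7.73% of all windows. Only this 7-base form was searched as an AP-1 site, so a longer variant in another member would be missed. GC content ranged from 48% in the ATF3 window to 77% in JUND, with 69.3% in EGR1 and 64.7% in FOS, against a median of 58.7% over all windows. The ATF3 window, which is not that of the canonical transcript, was the member window below that median. The motif shares over all windows were not matched for GC content. These letters are matches only, and binding was not measured here.

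**Figure D1:**
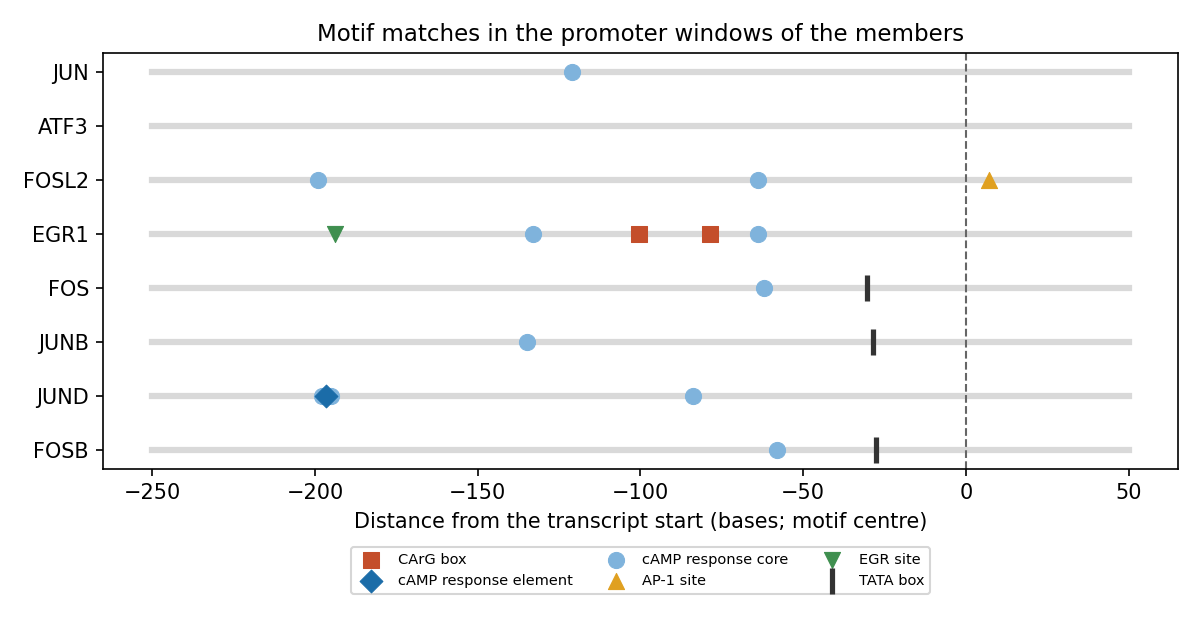
Motif matches in the 8 promoter windows of 8 members, with the distance of the motif's centre from the transcript start in bases on the horizontal axis; each grey bar is 1 window and each symbol 1 match. The 2 CArG boxes sit in EGR1, the full cAMP response element in JUND, and its shorter core in 7 members.

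Most members were expressed above the typical gene. Of the 10, 9 lay above the median of all genes per kilobase and 8 lay above the 75th percentile, and the counts were the same on the values as deposited. Once genes under a base mean of 5 were left out, 8 members lay above the median per kilobase and 7 above the 75th percentile. A base mean of at least 5 was reached by 9 members, and by 64.3% of all genes. The median member had a base mean of 234.1, against 21.8 over all genes, and 62.7 per kilobase, against 5.53. Summed, the members had a base mean of 3925, which is 618.5 per 1000000 of the base means summed over all genes. With all genes ranked, FOS and EGR3 were the members below the 75th percentile. With genes under a base mean of 5 left out, EGR3 was not ranked, and FOS at 36.8 and FOSB at 70.0 were below it.

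**Figure D2:**
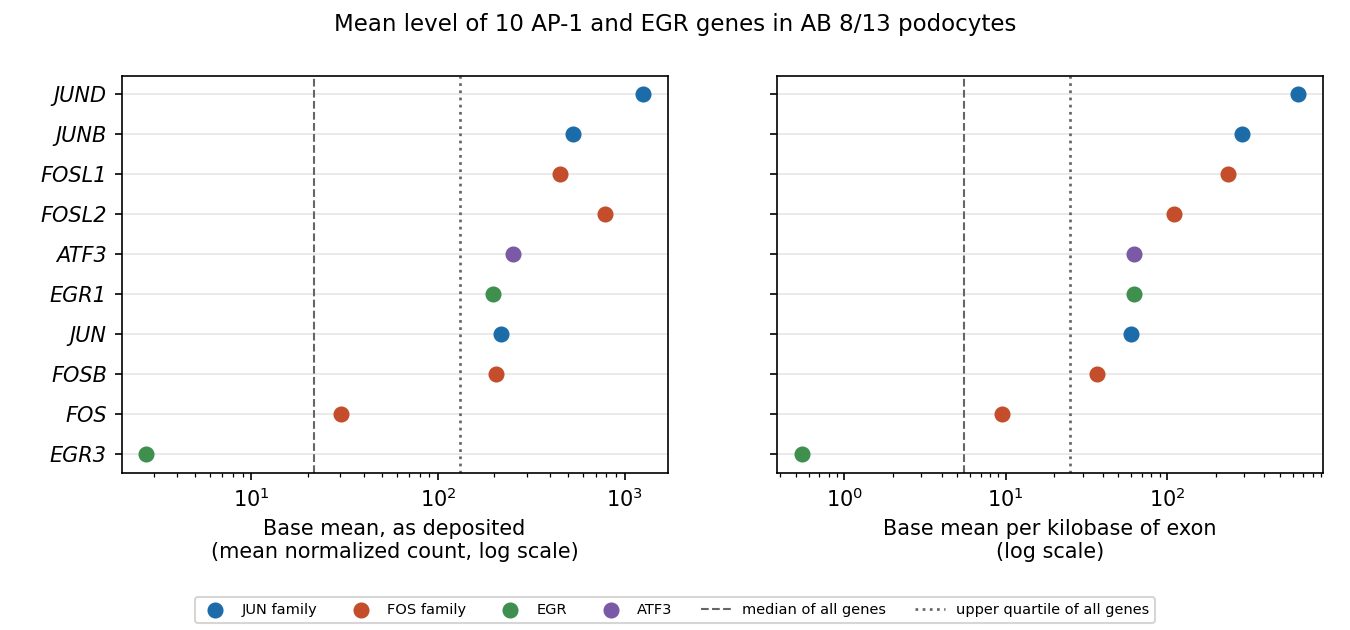
Base mean of each member as deposited (left, mean normalized count) and per kilobase of merged exons (right), on log axes, with the median and upper quartile of all genes as vertical lines. Points are the authors' means over all libraries, with no error available; JUND stands highest and EGR3 lowest on both scales, while FOSL2 is in place 2 as deposited and in place 4 per kilobase.

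Of the FOS and JUN transcripts, the larger share came from the JUN family. JUN proteins are the partners that every FOS protein needs. JUND, a factor that in many cells is present without stimulation, had the highest level of the 10, with a base mean of 1253.5 and 649.8 per kilobase, above 98.8% of genes. JUNB, which is induced early and often restrains JUN, had a base mean of 530.2 and 289.7 per kilobase. JUN itself, the prototype and the substrate of JNK, had a base mean of 216.9 and 59.9 per kilobase. JUND was thus 2.24-fold above JUNB and 10.9-fold above JUN per kilobase, or 2.36-fold and 5.78-fold as deposited. It made up 65.0% of the family's summed level per kilobase and 62.7% as deposited.

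In the FOS family, the 2 Fos-related antigens stood far above FOS. FOSL1, the gene of FRA-1, which lacks the strong activation domain of FOS and is long-lived, had a base mean of 452.0 and 239.5 per kilobase. FOSL2, the gene of FRA-2, had a base mean of 786.4 and 109.8 per kilobase. FOSB had a base mean of 205.2 and 37.0 per kilobase. FOS, the fastest of the immediate early genes, had a base mean of 30.3 and 9.50 per kilobase, above 58.7% of all genes. With genes under a base mean of 5 left out it was at percentile 36.8, so FOS was above or below the median according to which genes were ranked. FOSL1 was 25.2-fold and FOSL2 11.6-fold above FOS per kilobase, and 14.9-fold and 26.0-fold as deposited. Together FOSL1 and FOSL2 made up 88.3% of the family per kilobase and 84.0% as deposited. Their own order turned with the scale: FOSL1 was 2.18-fold above FOSL2 per kilobase, and FOSL2 was 1.74-fold above FOSL1 as deposited, since the merged exons of FOSL2 are 7162 bases long and those of FOSL1 1887.

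Across the 2 families, JUN members held 71.6% of the summed level per kilobase and 57.6% as deposited, so the JUN side was the larger on both scales. This order rested on JUND. Without it, JUNB at 530.2 and JUN at 216.9 were together below the FOS family's 1474 as deposited. Per kilobase they were at 289.7 and 59.9, together below its 395.8. JUN was 6.30-fold above FOS per kilobase and 7.17-fold as deposited, and JUND was 68.4-fold and 41.4-fold above FOS. These are levels of mRNA, and neither protein nor dimers were measured.

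ATF3, a stress-induced zipper protein that pairs with JUN proteins and as a homodimer represses, had a base mean of 251.2 and 62.8 per kilobase, above 87.3% of genes. Its length is the least certain of the members: the merged exons span 3998 bases and the canonical transcript 1940, which puts it at 129.5 per kilobase of the latter.

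The 2 EGR genes were far apart. EGR1, the main zinc finger factor of the immediate early response, had a base mean of 196.5 and 62.6 per kilobase, close to ATF3 and JUN when merged exon lengths were used. Per kilobase of canonical transcript ATF3 was at 129.5 and EGR1 at 62.6. EGR3, a later-induced relative that is itself a target of EGR1 in some cells, had a base mean of 2.74 and 0.544 per kilobase, which put it at percentile 16.2 of all genes, or 29.8 as deposited. EGR1 was 115-fold above EGR3 per kilobase and 71.8-fold as deposited. At a mean this low, and with no values per culture, it is not known in how many libraries EGR3 was counted at all.

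**Figure D3:**
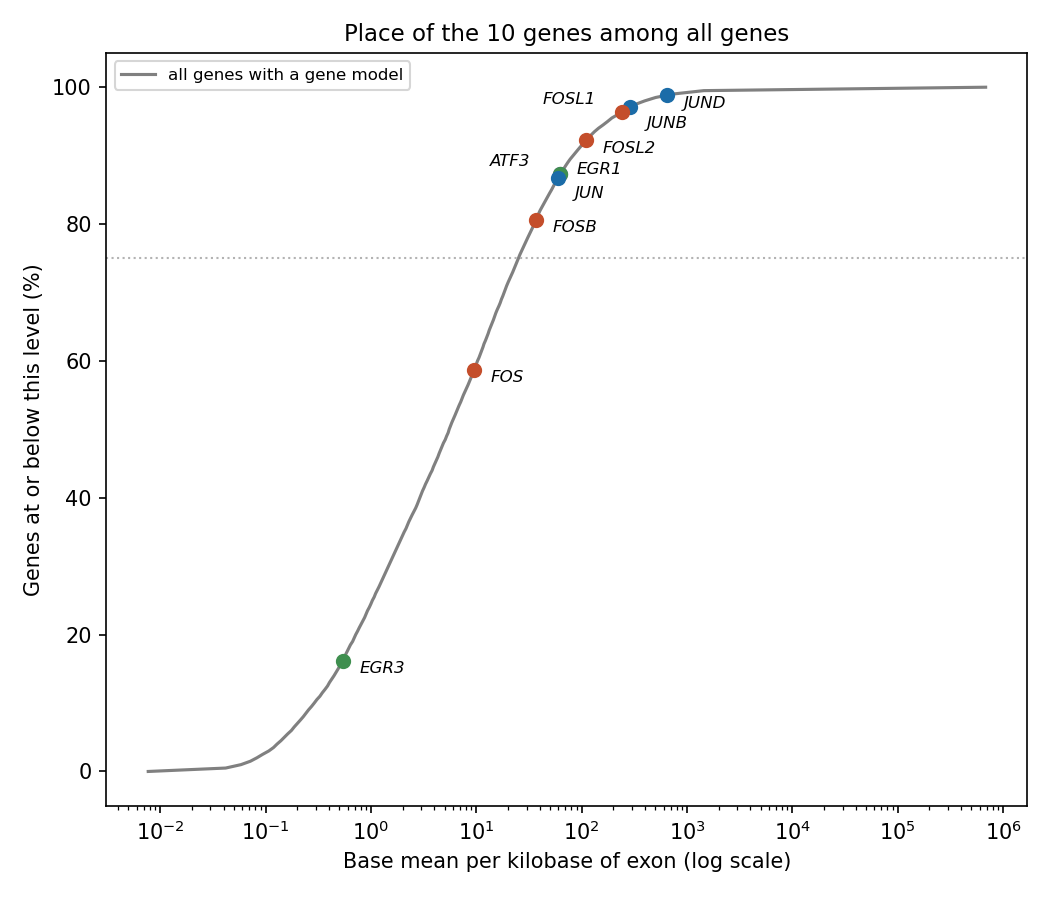
Share of all genes with a gene model (20599) at or below a given level, against base mean per kilobase of merged exons on a log axis, with the members marked in the colours of their families. The dotted line is the 75th percentile; 8 members lie above it, FOS is at 58.7% and EGR3 at 16.2%.

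The order per kilobase was JUND, JUNB, FOSL1, FOSL2, ATF3, EGR1, JUN, FOSB, FOS and EGR3. Of the 45 pairs of members, 41 kept this order on the values as deposited. The 4 that changed were FOSL2 against JUNB and against FOSL1, and EGR1 against JUN and against FOSB. A difference of under 2-fold separated 10 pairs per kilobase. ATF3, EGR1 and JUN lay between 59.9 and 62.8 per kilobase of merged exons, and with no replicate values it cannot be said whether neighbours in this order differ beyond their spread.

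Most members have few exons and a short span. JUN, JUNB and JUND have 1 exon each in their canonical transcripts, EGR1 and EGR3 have 2, and the 4 FOS genes and ATF3 have 4. Of 14455 protein-coding genes of the table, 2.46% have 1 exon and 21.7% have 4 or fewer, with a median of 9. The median span of the 10 genes is 6.50 kb, from 1.83 kb for JUNB to 24.9 kb for FOSL2 and 55.4 kb for ATF3, against 34.1 kb for coding genes. ATF3 is the member longer than that median.

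On GRCh38 (GENCODE 44), 3 of the members lie on chromosome 19: JUNB (ENSG00000171223) at 12791486 to 12793315 on the plus strand, JUND (ENSG00000130522) at 18279694 to 18281622 on the minus strand and FOSB (ENSG00000125740) at 45467995 to 45475179 on the plus strand. Chromosome 1 holds JUN (ENSG00000177606), at 58776845 to 58784048 on the minus strand, and ATF3 (ENSG00000162772), at 212565334 to 212620777 on the plus strand. FOSL2 (ENSG00000075426) is on chromosome 2 at 28392448 to 28417317, plus strand, and EGR1 (ENSG00000120738) on chromosome 5 at 138465479 to 138469303, plus strand. FOSL1 (ENSG00000175592) is on chromosome 11 at 65892049 to 65900573, minus strand, and FOS (ENSG00000170345) on chromosome 14 at 75278826 to 75282230, plus strand. EGR3 (ENSG00000179388) is on chromosome 8 at 22687659 to 22693480, minus strand. In the last 500 exonic bases of each member's canonical transcript, where 3′-end reads fall, exons of other genes covered 0% on either strand.

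AU-rich elements in the 3′ untranslated region mark mRNAs for rapid decay, and their core is the pentamer ATTTA. All 10 members had at least 1 in the canonical transcript, as had 73.1% of 14418 coding genes. At least 3 were found in 6 members and in 46.8% of coding genes. FOS was the densest, with 5 in 806 bases, or 6.20 per kilobase, above 95.1% of coding genes. JUNB followed with 2 in 500 bases, or 4.0 per kilobase. FOSL2 had the most, 9, but in 4869 bases, or 1.85 per kilobase, and EGR1 had 1 in 1222 bases. As a group the members were not dense in the pentamer: their median was 1.62 per kilobase against 1.74 for coding genes, and 5 of 10 were above that median.

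Genes of proteins that act on AU-rich mRNAs were all above the 75th percentile per kilobase (4 of 4 genes listed), and 3 of 4 as deposited. ZFP36L1, which promotes the decay of such mRNAs, had the highest base mean, 18488, and ZFP36, or tristetraprolin, itself an immediate early gene, the lowest, 103.1. Of 13 kinases and factors grouped as upstream of the members, 13 had a base mean of at least 5, as had 64.3% of all genes. Of these 13, 5 were above the 75th percentile per kilobase, or 7 as deposited. Their highest and lowest base means belonged to 2 coactivators of serum response factor, MRTFB at 678.1 and MRTFA at 21.2.

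By median per kilobase, the other partners and relatives listed were lower than the members. Members and lists were chosen with earlier results of these data known, so this contrast is descriptive only. Of 9 further basic leucine zipper partners listed, 8 had a row, 7 of them with a base mean of at least 5 and 4 above the 75th percentile. MAFF, a small MAF protein, was highest at 542.2 and BATF2 lowest at 2.53; BATF was not analysed here. Their median was 20.4 per kilobase, against 62.7 for the 10 members, and medians of the lists were not taken as deposited. Among the EGR relatives and corepressors, NAB2, a corepressor that EGR1 induces and that restrains it, was highest at 144.0, and EGR4 lowest at 0.399; 1 of the 4 was above the 75th percentile.

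Genes often cited as AP-1 targets fell into high and near-zero levels. Of the 6 with a row, 4 were above the 75th percentile, led by TIMP1, an inhibitor of matrix metalloproteinases, at a base mean of 4504. The other 2 were below 5, with MMP1, a collagenase, lowest at 0.463; MMP3 was not analysed here.

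**Figure D4:**
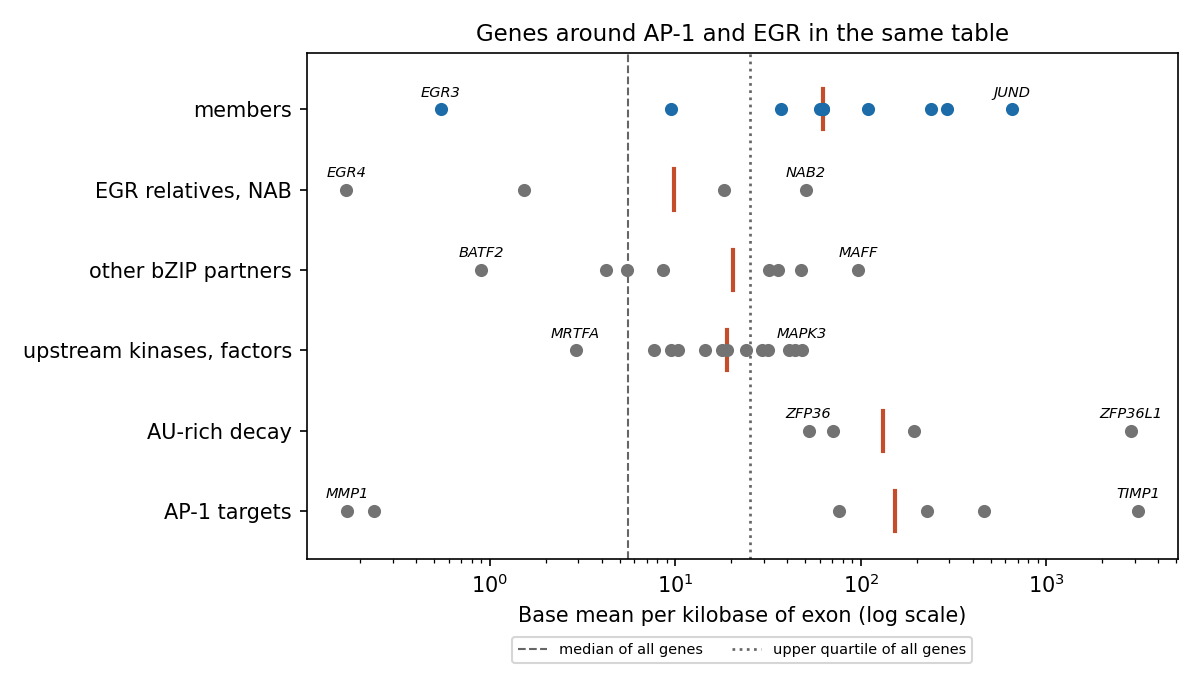
Base mean per kilobase of merged exons, on a log axis, for the members and 5 lists of related genes; each point is 1 gene, the red bar the list's median, and the genes with the highest and lowest value are named. The medians are 62.7 for the members, 9.87 for EGR relatives and NAB corepressors, 20.4 for other partners and 19.0 for upstream kinases and factors. They are 132 for the AU-rich list, which is not of decay factors alone, and 152 for AP-1 targets. These medians are per kilobase only, a scale that may over-correct for length.

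The labelled cell type was checked against marker lists. Of 13 podocyte markers, 12 had a row, 11 with a base mean of at least 5 and 5 above the 75th percentile. They ranged from VIM, a filament protein not particular to podocytes, at 19062, to PTPRO at 0.333. The other 4 of those above the 75th percentile were ACTN4 at 14320, CDKN1C at 1019, CD2AP at 929 and KIRREL1 at 253. SYNPO was at 22.8, PODXL at 15.3 and WT1 at 6.21, and the slit diaphragm gene NPHS1 had no row. The mesangial list, with 3 of 4 genes in the table, ran from COL1A1 at 2733 and ACTA2 at 1021 down to PDGFRB at 4.14, and ITGA8 had no row. In the tubular list AQP1 was at 243 and EPCAM at 76.3, the latter above the 75th percentile per kilobase but at percentile 66.6 as deposited. SLC34A1 at 0.9004 and CDH1 at 0.546 were near 0, and LRP2 and UMOD had no row. The endothelial genes VWF at 0.434 and CDH5 at 0.306 were near 0, as were the leukocyte genes CD68 at 1.06 and PTPRC at 0.832. The podocyte list was thus mixed, and so were the mesangial and tubular lists. Their part in the levels of the 10 members was not tested.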

How the data were processed

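RNA was measured in 3 vehicle and 3 levamisole cultures of AB 8/13 cells with an adapted CEL-seq protocol. Per the study's methods and the submitters' processing notes, the authors trimmed reads with Trim Galore 0.4.5 (cutadapt 1.18), mapped them to GRCh38 with STAR 2.7.5a, counted them with HTSeq 0.11.0 on Ensembl release 95 and normalized with DESeq2 1.22.0 in R 3.5.3. The methods also describe a BWA alignment. They name a minimum of 5 reads, yet the table lists genes below a base mean of 5.

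The deposited base mean is a signal: normalized counts that the authors averaged over the libraries of their fit, which may be more than these 6. The other 5 columns hold the authors' group comparison (log2 fold change, its standard error, statistic, p-value and adjusted p-value) and were not used. No levamisole comparison was therefore made.

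Base means were divided by merged exon length (GENCODE 44, GRCh38). Of 20745 gene identifiers, 20599 matched. Windows starting at the first base of an internal exon were not used (1 of ATF3). Motifs were searched on both strands of RefSeq windows, and the search was tested on planted sequences. Python 3.11.15, NumPy 2.4.6, pandas 2.3.3 and matplotlib 3.10.9 were used. The members and gene lists were chosen with earlier results of these data known. Some genes of the lists are not reported here and were left out of their counts. All members were named, with the genes of highest and lowest base mean in each other list; other marker genes, and the promoters shown besides EGR1, were named after their values had been seen. Alternatives were the deposited scale, canonical transcript length, coding genes alone, a base mean of at least 5, and looser or stricter motifs.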

Additional observations from a re-analysis of the deposited data

How the results depend on the processing

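The count of members above the 75th percentile of genes was 8, and 8 on the values as deposited and with canonical transcript lengths. It was 7 among protein-coding genes and also 7 once genes under a base mean of 5 were left out. The JUN family's share of the FOS and JUN level, 71.6% per kilobase of merged exons, was 57.6% as deposited and 69.0% with canonical lengths. On the values as deposited, the percentile was higher for 3 members and lower for 7. With that filter, it was lower for 9 of 9, since fewer low genes were ranked, and FOS went from 58.7 to 36.8. The promoter and pentamer counts followed the stringency. Of the 8 members with a window, a CArG box was found in 1, or 2 with 1 mismatch allowed. The cAMP response element was found in 1 of these 8, or 7 for its shorter core. Of all 10 members, the pentamer was found in 10, or 6 where at least 3 were asked for. No paired analysis was possible because the table gives 1 mean per gene and nothing for single cultures. Comparisons of levamisole with vehicle (limma, another normalization, a filter on low counts, each replicate left out) were not run either, and the precision of every level is unknown.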
